A study of Homo sapiens with 8 samples.

Results

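Of the 491 transcript clusters in the authors' deposited table, 119 (24.2%) carry no gene symbol, and these unnamed clusters were analysed. A transcript cluster is the set of array probes that gathers the transcripts of a single locus. The members were chosen by an empty symbol in a table that holds changes over 2-fold, so the differences of their group averages follow in part from that selection and are given as a description with no test. The table classes 91 of the unnamed clusters (76.5%) as noncoding and 28 (23.5%) as coding. For the 372 clusters with a symbol the order was reversed, with 69 (18.5%) noncoding and 303 (81.5%) coding. A symbol was absent in 56.9% of all noncoding clusters listed and in 8.46% of all coding ones. None of the 119 has a description or a comment in the table, while all 372 named clusters have a description. Each is therefore called by its cluster ID, and what it transcribes was not identified here.

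A large part of the human genome is transcribed into RNA that encodes no protein. Long noncoding RNAs are commonly less abundant and more restricted to particular cell types than messenger RNAs. Some act on genes next to them, and others are transcribed from the promoter or an intron of a neighbouring gene. Transcriptome arrays carry probes for many such loci that were known at the time of design only from sequenced transcripts, and these often have no official gene name.

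The arrays compared A375, a human melanoma cell line, carrying a lentiviral doxycycline-inducible shRNA against PLK1, a mitotic kinase (shPLK1, 4 arrays), with the same line carrying an inducible nonsense shRNA (shNS, 4 arrays). Both groups received doxycycline for 48 h. The labels list 4 biological replicates per group and the study's methods 3, and all 8 arrays entered the fits of single probe sets. The lines had been made before the array experiment, and nothing says that the replicates came from separately made lines, so any p-value rests on how much parallel cultures varied. PLK1 is not among the listed clusters, which passed a 2-fold limit, so no change of that size in PLK1 is listed. The knockdown itself was not checked here. Lineage markers of A375 were not checked either, because the per-array values carry no gene names.

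For each cluster the table gives the authors' bi-weight average of the log2 signal in a group headed 5d and in a group headed NS. NS was read as shNS. No source used here says what 5d stands for, and it was read as shPLK1, the only other group. Per-array values of the clusters were not analysed here, so no cluster has an error or a number of replicates. As a guide to the spread between arrays, exon probe sets within 0.25 of a log2 level of 3 had a median within-group SD of 0.291, those around 5 one of 0.26, those around 7 one of 0.191 and those around 10 one of 0.14. The smallest difference among the unnamed clusters was 1.0 on the log2 scale. A single exon is not a cluster average, so these SDs describe the arrays and not the clusters. A lower signal in a culture can mean fewer cells with the RNA or less of it per cell, which cannot be told apart.

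In the authors' averages 74 of the unnamed clusters (62.2%) were lower in 5d and 45 (37.8%) were higher. Over all 491 clusters, 62.3% were lower and 37.7% higher, and of the named clusters 232 were lower and 140 higher. Clusters without a symbol thus divided between the directions much as the rest did, and nothing about them is read from that count. Shares were alike within each class, with 61.5% lower among the noncoding and 64.3% among the coding unnamed clusters. The median decrease was 1.44 log2 units (2.7-fold) in unnamed clusters beside 2.79-fold in named ones. The median increase was 2.51-fold beside 2.27-fold.

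Large changes were mostly decreases in both sets. Over 3-fold there were 35 unnamed clusters, 26 lower and 9 higher, and 129 named clusters, 104 lower and 25 higher. Over 4-fold 13 unnamed clusters were lower and 2 higher, against 65 and 7 named ones. The 372 named clusters carry 305 distinct symbols, and HLA-DRA is among those with several strongly lower clusters. These counts are therefore of clusters and not of genes. The far end of the range was held by named loci. The largest decrease of an unnamed cluster was 8.75-fold and that of a named one 123-fold.

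**Figure D1:**
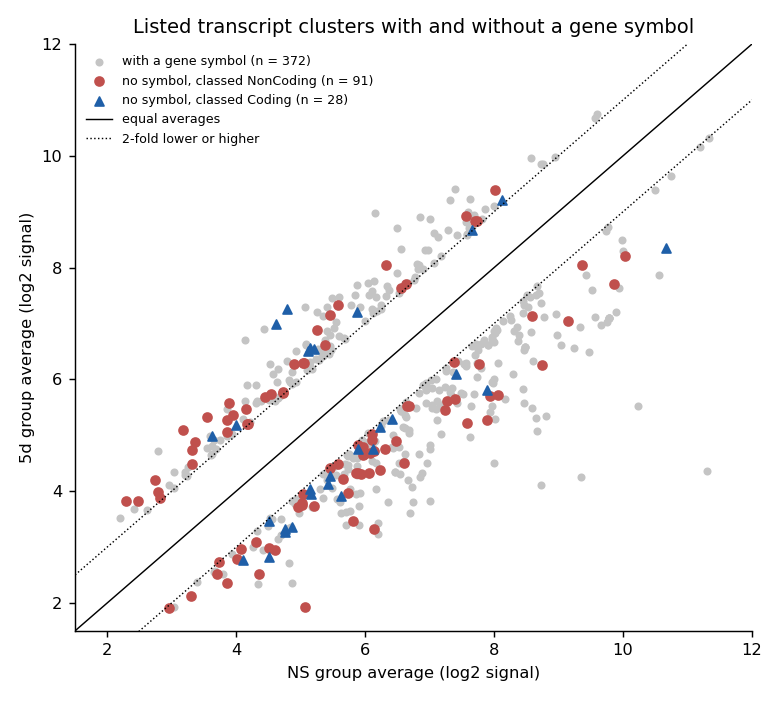
Group averages of all 491 listed clusters as log2 signal, NS on the horizontal and 5d on the vertical axis; each point is a cluster, the solid line marks equal averages and the dotted lines a 2-fold difference. The 119 unnamed clusters lie on both sides, 74 below and 45 above the line, and crowd toward the lower left, with 15 reaching an average of 8 or more.

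The largest decrease was that of TC03002412.hg.1, a noncoding cluster of chromosome 3, with an average of 5.06 in NS and 1.93 in 5d. Its 5d average lies below 2.98, the median of the 23 background controls of the array, which ranged from 1.36 to 10.78, so 8.75-fold need not be its exact size. TC07002629.hg.1, on chromosome 7, averaged 6.14 in NS and 3.32 in 5d (7.06-fold lower). TC22001222.hg.1 went from 7.89 to 5.28 (6.11-fold lower) and TC07002953.hg.1 from 8.74 to 6.25 (5.62-fold lower). Both of these stayed well above that control median in both groups. The other 6 of the 10 largest decreases were TC06002623.hg.1, TC09002428.hg.1, TC19002527.hg.1, TC12001200.hg.1, TC12002957.hg.1 and TC12002821.hg.1, the last at 4.44-fold. Of these 10 clusters 9 are noncoding, they spread over 7 chromosomes, and 3 of them have chromosome 12 IDs.

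Both largest increases belonged to clusters classed as coding. TC02000729.hg.1, on chromosome 2, averaged 4.78 in NS and 7.26 in 5d (5.58-fold higher), and TC12000235.hg.1, on chromosome 12, averaged 4.62 and 6.99 (5.17-fold higher). The other 8 of the 10 largest increases were noncoding. Among them TC21000572.hg.1 went from an average of 3.18 to 5.09 (3.76-fold), TC06003087.hg.1 from 3.54 to 5.33 (3.46-fold) and TC06003802.hg.1 from 5.57 to 7.33 (3.39-fold). TC19002365.hg.1, TC13001024.hg.1, TC02004372.hg.1, TC09002563.hg.1 and TC0X001577.hg.1 followed at 3.32-fold to 2.91-fold. The decreases thus extended further than the increases, as they did among named clusters.

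At the other end, 26 unnamed clusters (21.8%) differed by less than 2.2-fold, beside 108 named ones (29%). Just inside the limit were the decreases of TC09002441.hg.1, from 3.73 to 2.73, and of TC12002400.hg.1, from 5.46 to 4.42. On the other side were the increases of TC09001154.hg.1, from 7.65 to 8.67, and of TC0X002050.hg.1, from 4.18 to 5.20. Clusters under the limit are not in the table. The study selected its changed genes by a p-value limit as well, so some clusters past 2-fold may be missing. Whether that p-value limit was applied to the deposited table was not checked here.

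The unnamed clusters had low signals. The higher of the 2 group averages had a median of 5.89 (25th and 75th percentiles 5.04 and 7.18), against 7.0 (5.96 and 8.15) in named clusters. This held within each class, with medians of 5.89 and 6.88 for unnamed and named noncoding clusters and of 6.00 and 7.03 for coding ones. Only 15 unnamed clusters (12.6%) reached 8 in either group, against 106 named ones (28.5%). In 17 unnamed clusters (14.3%) the lower average was under the background control median of 2.98, against 15 named ones (4.03%). Probes differ in how strongly they bind, and the controls come from the table of single probe sets, which was summarised separately, so these levels describe signals and not amounts of RNA.

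The brightest unnamed cluster was TC12001200.hg.1, classed as coding, at 10.66 in NS and 8.35 in 5d (4.96-fold lower). The second was the noncoding TC01004907.hg.1, at 10.03 and 8.20 (3.56-fold lower). The dimmest was TC13001666.hg.1, at 2.95 in NS and 1.90 in 5d, both below the control median. TC08002421.hg.1 was next, at 3.30 and 2.13. For such clusters a 2-fold difference is one between signals near the background.

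Named clusters differed in level with the kind of symbol. RefSeq (GRCh38.p14) matched 242 of the 305 symbols. The 16 clusters it lists as long noncoding RNAs, some of them from the same locus, had a median higher average of 7.02, and 13 of them were lower in 5d. An overlapping set of 40 clusters, taken by the form of the symbol (LINC or LOC numbers, antisense, intronic and host gene suffixes), had a median of 6.37, and 27 were lower. The 271 clusters of protein-coding genes had a median of 7.30, and 165 were lower. The 76 clusters whose symbol was not matched, many of them named after a sequenced clone, had a median of 6.08, and 49 were lower. The unnamed clusters, at 5.89, were below each of these medians. For the lower of the 2 averages their median was 4.51, beside 4.5 for unmatched symbols, so that gap was absent there. The sets of 40, 16 and 271 clusters had medians of 4.71, 5.05 and 5.6 on that measure.

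Chromosome 9 held the most unnamed clusters. The chromosome is written in the cluster ID, and 118 of the 119 IDs name one of 20 main chromosomes. Chromosome 9 had 20 of them (16.8%), while it had 22 (5.91%) of the named clusters and 3.99% of the exon probe sets on the array. Exon probe sets are another unit than clusters, and how many unnamed clusters the array carries per chromosome was not known here. Chromosome 1 followed with 12 unnamed clusters, and chromosomes 3 and 12 had 9 each. Of the listed clusters with chromosome 9 IDs 47.6% had no symbol. Chromosome 21 had 4 listed clusters, all of them unnamed, 3 higher and 1 lower. Chromosomes 16, 17 and 20 had named clusters and no unnamed one. The X chromosome had 3 unnamed clusters and 30 named ones, many of these from the GAGE family of cancer-testis antigens. Whether this spread over the chromosomes differs between unnamed and named clusters was not tested, since neighbouring clusters are not independent.

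On some chromosomes the few unnamed clusters all had the same direction. All 5 unnamed clusters of chromosome 4, all 6 of chromosome 7 and all 4 of chromosome 11 were lower in 5d. Of the named clusters 11 of 17 were lower on chromosome 4, 10 of 16 on chromosome 7 and 13 of 19 on chromosome 11, near the 62.3% of all clusters. All 4 of chromosome 18 and all 3 of the X chromosome were higher. On the X chromosome 23 of the 30 named clusters were lower, most of them from the GAGE family, whose listed clusters were all lower. The other named X clusters had both directions. On chromosome 18 20 of 23 named clusters were higher. On chromosome 13, 4 of 5 unnamed clusters were lower, beside 11 of 18 named ones. The exception on chromosome 13 was TC13001024.hg.1, which averaged 5.45 in NS and 7.15 in 5d.

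**Figure D2:**
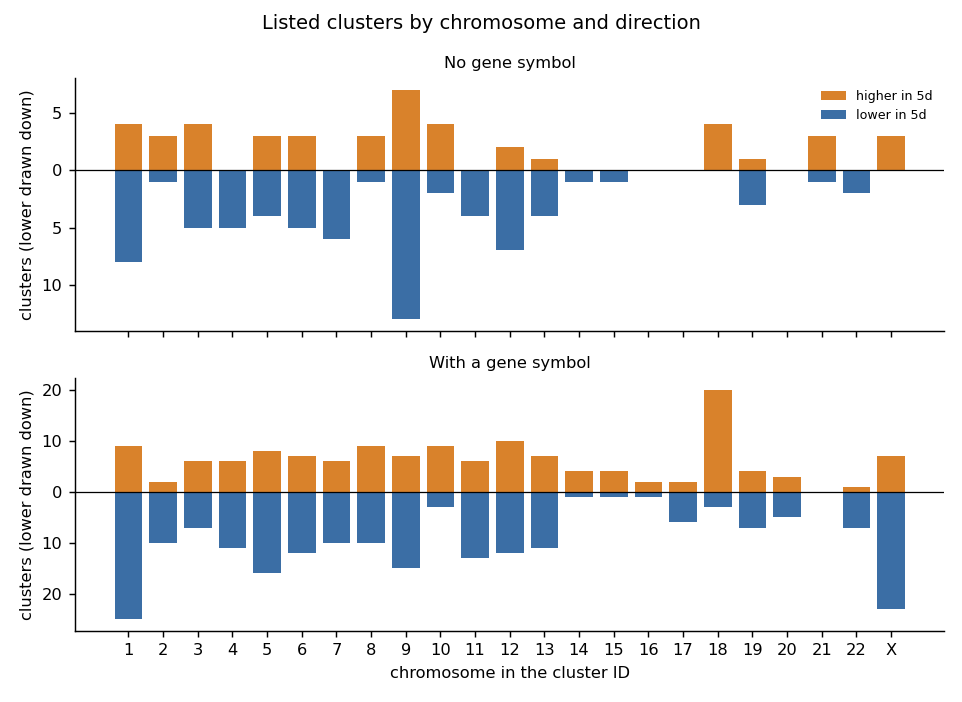
Number of listed clusters per chromosome, without (upper panel) and with a gene symbol (lower panel, another scale); bars above 0 count clusters higher in 5d and bars below 0 those lower. Chromosome 9 has the tallest bars among the unnamed clusters, 13 lower and 7 higher, and chromosome 18 has 4 unnamed clusters, all higher; haplotype clusters are not drawn.

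The single probe sets give array-by-array values for these chromosomes. In limma, with Benjamini-Hochberg adjustment over 573909 exon probe sets, 1.99% were higher and 2.2% lower in shPLK1 at an adjusted p under 0.05. Of the 22877 exon probe sets of chromosome 9, 479 (2.09%) were higher and 705 (3.08%) lower. Of the 6900 of chromosome 18, 1015 (14.7%) were higher and 134 (1.94%) lower, and of the 11562 of chromosome 13, 124 (1.07%) were higher and 836 (7.23%) lower. Chromosome 9 was thus close to the rate of all probe sets for higher calls and above it for lower calls. Of its clusters 13 of 20 unnamed and 15 of 22 named ones were lower, near the 62.3% of all listed clusters. Chromosomes 18 and 13 lay further from the overall rates, in the direction of most of their unnamed clusters. With each array left out in turn, the count of lower probe sets on chromosome 13 was 551 to 747 in place of 836. Over all exon probe sets that count was 9800 to 11198 in place of 12624.

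For each array, the shift of a chromosome was the median deviation of its exon probe sets from their means over both groups, after subtracting the median deviation of all exon probe sets. For chromosome 9 the shPLK1 arrays lay at 0.0068, 0.0047, 0.0001 and 0.0060 on the log2 scale and the shNS arrays at -0.0039, -0.0060, -0.0006 and -0.0041. The groups did not overlap, but their means differed by 0.0081 log2 units only, with shPLK1 the higher. That is the opposite direction to the excess of lower calls on chromosome 9. For chromosome 18 the shPLK1 arrays lay at 0.087, 0.0738, 0.0959 and 0.072 and the shNS arrays at -0.0706, -0.0907, -0.1096 and -0.069, a difference of 0.17. For chromosome 13 the shPLK1 arrays lay at -0.0376, -0.0886, -0.0484 and -0.0758 and the shNS arrays at 0.0517, 0.0656, 0.0496 and 0.0737, a difference of -0.12. On chromosomes 18 and 13 every array of a group was far from every array of the other. These 3 shifts, and those of 4 further chromosomes, each reached p = 0.0286 in a two-sided exact permutation test, the smallest that 4 arrays against 4 allow, and 0.0981 after adjustment over 24 chromosomes. The part of these shifts in the unnamed clusters of chromosomes 13 and 18 was not tested.

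**Figure D3:**
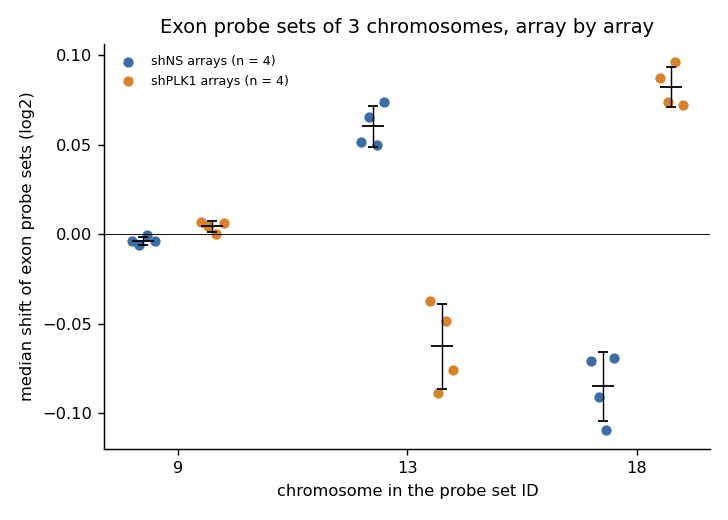
Median shift of exon probe sets on chromosomes 9, 13 and 18 in log2 units, 1 point per array, with the mean and SD of the 4 shNS and the 4 shPLK1 arrays. The arrays of chromosome 9 all lie within 0.0068 of 0, while those of chromosome 18 are above 0 in shPLK1 and below 0 in shNS, and those of chromosome 13 the other way round.

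On chromosome 9 the unnamed clusters of like direction stood together in the numbering. In order of their ID numbers, the first 5 of its 15 noncoding unnamed clusters, from TC09001849.hg.1 to TC09001974.hg.1, were all lower in 5d. The next 6, from TC09002428.hg.1 to TC09002527.hg.1, were all lower as well. The last 4, from TC09002547.hg.1 to TC09002564.hg.1, were all higher. Within this last run the consecutive IDs TC09002562.hg.1, TC09002563.hg.1 and TC09002564.hg.1 averaged 3.31, 5.25 and 4.89 in NS and 4.74, 6.88 and 6.28 in 5d, increases of 2.69-fold, 3.10-fold and 2.62-fold. The 5 coding ones were mixed, 3 higher and 2 lower. The coding TC09001164.hg.1 (2.57-fold higher) has an ID 3 numbers from that of PGM5P2, a pseudogene, which was 2.53-fold higher. Chromosome 9 has large near-identical duplications around its centromere, and clusters of such copies can share signal, so these clusters need not be separate transcripts. Whether any of them lies in those duplications was not tested.

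**Figure D4:**
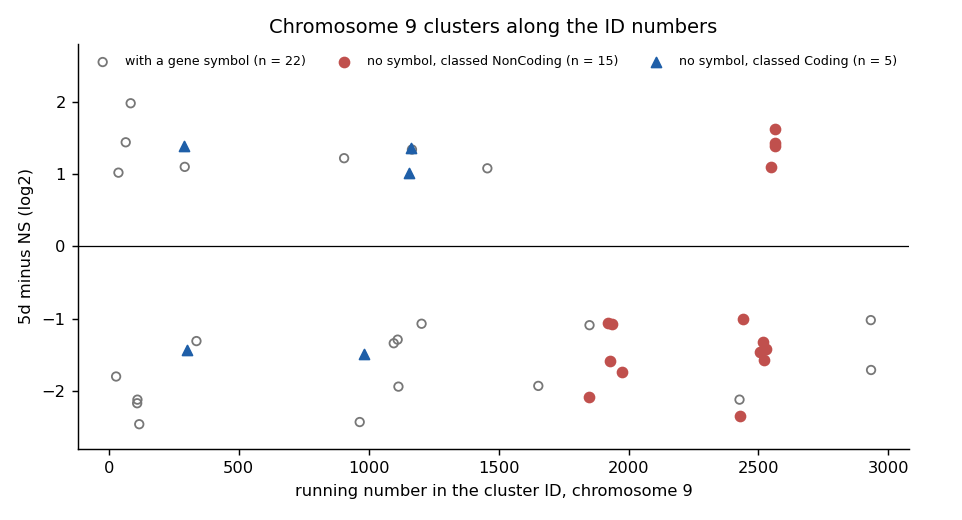
Difference of the group averages (5d minus NS, log2) of the 42 listed clusters of chromosome 9 along the running number of their IDs, unnamed clusters filled and named ones open. Noncoding unnamed clusters numbered 1849 to 2527 all lie below 0 and those numbered 2547 to 2564 all lie above it.

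ID numbers follow the genome in part. Of 127 pairs of consecutive named clusters of the same chromosome, class and strand, 118 (92.9%) came in the order of their gene starts in RefSeq. Each unnamed cluster was therefore set beside the listed cluster of its own chromosome and class with the nearest ID number. A listed cluster with the adjacent number existed for 15 unnamed clusters, and in all 15 both differed in the same direction, 8 lower and 7 higher. With 2 to 10 numbers between them, 17 of 25 had the same direction, with 11 to 100 numbers 28 of 53, and with more than 100 numbers 15 of 23. Beyond adjacent numbers the share thus did not fall steadily with distance. For named clusters the counts were 63 of 63 at adjacent numbers, 38 of 61 at 2 to 10, 84 of 163 at 11 to 100 and 39 of 81 beyond 100. Pairs where each is the other's neighbour are counted for both members, and adjacent clusters can be parts of a single transcript, so these counts are not of independent loci. None of the 15 has a chromosome 13 or 18 ID.

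**Figure D5:**
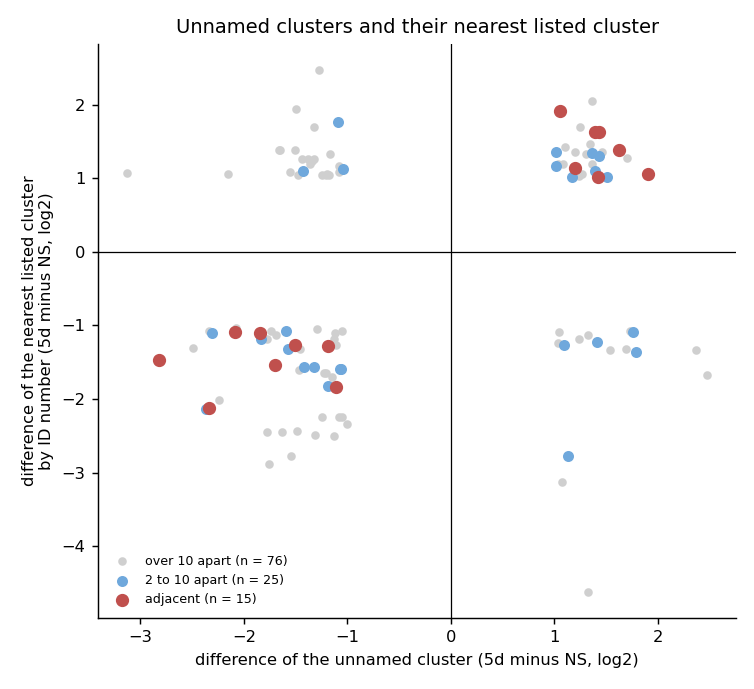
Difference of each unnamed cluster (horizontal, 5d minus NS, log2) against that of the listed cluster with the nearest ID number on the same chromosome and in the same class (vertical). All 15 adjacent pairs have the same sign on both axes, while pairs over 10 numbers apart lie on every side of the crossing lines.

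Of the 15, 8 stand next to a named cluster. TC19000457.hg.1, classed as coding, averaged 5.62 in NS and 3.92 in 5d (3.25-fold lower), and FXYD3, a regulator of the sodium pump, averaged 7.32 and 5.78 (2.91-fold lower). TC07000126.hg.1 went from 4.87 to 3.36 (2.85-fold lower) beside ITGB8, the integrin β8 subunit, from 7.56 to 6.29 (2.41-fold lower). In both pairs the named gene had the brighter signal.

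TC07002629.hg.1, the second largest decrease, stands next to the noncoding cluster of LOC93432, which averaged 4.69 in NS and 3.22 in 5d (2.77-fold lower). TC01005748.hg.1 (2.28-fold lower) lies between the noncoding clusters of LINC00622 (3.61-fold lower) and of the zinc finger gene ZNF697 (2.43-fold lower). On chromosome 9, TC09001849.hg.1 (4.26-fold lower) adjoins the noncoding cluster of RP11-370B11.3 (2.13-fold lower). TC09002428.hg.1 (5.06-fold lower) adjoins the noncoding cluster of RP11-408N14.1 (4.35-fold lower). The 5d averages of the noncoding clusters of RP11-370B11.3 (2.56) and LOC93432 (3.22) lay near the control median of 2.98. The folds within these pairs are therefore not ranked. Both chromosome 9 symbols also have a listed coding cluster, 4.35-fold lower for RP11-370B11.3 (6.16 in NS, 4.04 in 5d) and 5.39-fold lower for RP11-408N14.1.

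Higher in 5d were TC01000081.hg.1 (5.14 in NS, 6.56 in 5d) next to AJAP1, an adherens junction protein (7.18 and 8.20), and TC08002238.hg.1 (3.86 and 5.06) next to the noncoding cluster of the scavenger receptor MSR1 (5.46 and 6.60). The remaining 7 adjoin another unnamed cluster. Besides the chromosome 9 triplet these are TC21000572.hg.1 and TC21000573.hg.1, both higher, and TC03002726.hg.1 and TC03002727.hg.1, both lower. The chromosome 3 pair lies 5 numbers before the noncoding cluster of HES1, a transcriptional repressor downstream of NOTCH, which was 2.14-fold lower.

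A few numbers away, TC06002623.hg.1 (5.17-fold lower) was nearest to the noncoding cluster of the transcription factor SOX4 (4.41-fold lower). The coding cluster of SOX4 was 2.16-fold lower. TC03002264.hg.1 (2.85-fold higher) was nearest to the noncoding cluster of TGFBR2, a receptor of TGF-β (2.03-fold higher). TC12002392.hg.1 went the other way from its neighbour, as it was 2.19-fold higher while the noncoding cluster of ERBB3, a neuregulin receptor, was 6.82-fold lower. A near ID number is no sign that an unnamed cluster belongs to the named gene.

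A single unnamed cluster had an ID of an alternative MHC haplotype, another version of the HLA region on chromosome 6, against 24 of the named clusters. That cluster, TC6_dbb_hap3000208.hg.1, is noncoding and averaged 9.14 in NS and 7.05 in 5d (4.26-fold lower). No unnamed cluster shared both of its averages with another row, whereas 11 named clusters did, among them HLA-DRA, HLA-DRB1 and GAGE12F.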

How the data were processed

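RNA of 4 shPLK1 and 4 shNS A375 cultures was measured on Affymetrix Human Transcriptome Arrays. The authors processed the scans by RMA (background correction, quantile normalization and probe summary) in Transcriptome Analysis Console 3.0.0.466, and deposited a log2 value for each of 573909 exon and 339146 junction probe sets and for 1530 controls. Their second deposited table holds the log2 bi-weight average of each group per cluster, and its own fold and p-value columns were not used. Folds here are powers of 2 of the difference of those averages. Genome build and annotation were not given in the sources used here. RefSeq served for gene types and the order of genes only.

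Probe sets were fitted with limma 3.58.1 (R 4.3.3), with group as the only term, all 8 arrays, no filter and Benjamini-Hochberg adjustment, after being tested on simulated data. The number of arrays limits the precision. Per-array values of the clusters and sequences of their loci were not analysed here. Clusters are named by these rules: the 10 largest changes per direction, the 2 nearest to the limit per direction, the 2 brightest and the 2 dimmest. Clusters singled out for chromosome, ID neighbour or haplotype were chosen after their values were seen. Classes of annotation source were planned from the descriptions, which are empty. The members and lists were chosen with earlier results of these data known. Alternatives were other fold limits, level filters, chromosomes left out, a wider meaning of unnamed, and for probe sets another filter, spread model, replicate block, probe set kind and each array left out.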

Additional observations from a re-analysis of the deposited data

How the results depend on the processing

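The share of unnamed clusters lower in 5d, 62.2%, was 59.6% to 63.6% under 7 alternatives, including one chosen after seeing the data that left out chromosome 9 (61.6%). The alternative that counted clusters with equal averages once could not change the share, since no unnamed cluster shared both averages with another row. Among clusters over 3-fold alone the share was 74.3% (26 lower, 9 higher). With no per-array values of clusters, no array could be left out of these counts. Of the exon probe sets, 11422 were higher and 12624 lower in shPLK1, and an ordinary equal-variance model gave 7432 higher and 8864 lower. Leaving out each array in turn gave 8140 to 9614 higher and 9800 to 11198 lower. With the replicate number as a block, 8077 were higher and 9161 lower. Same-numbered arrays did not deviate together (correlations of -0.145 to 0.042), so the numbers were not taken as pairs. On chromosome 13 the block gave 498 lower probe sets and the equal-variance model 528, in place of 836. Low signals, often near the background controls, limit the sizes given for the dimmest clusters.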
